A study of Mus musculus with 18 samples.

Results

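MC38 cells, a mouse colon adenocarcinoma line, in which the tumour suppressor gene Apc had been deleted were compared after 24 h with doxycycline and without it. The comparison takes 6 of the 18 libraries of the series, chosen by their titles: 3 libraries of APC-deleted cells without doxycycline and 3 of APC-deleted cells carrying an inducible hairpin against Tdo2 and kept in 1 µM doxycycline for 24 h. Of the remaining libraries, 3 of the APC-deleted hairpin line at 48 h and 6 of APC-intact MC38 cells (3 without doxycycline, 3 hairpin libraries at 24 h and 1 µM) served for comparison, and all 18 entered the fit. How Apc was deleted and whether each line is 1 clone are not given in the sources used here, and MC38 carries the same origin in every group. Only treated libraries name the hairpin in their titles, while the extraction protocol lists it for treated and untreated cells alike, and these sources leave it unclear for the untreated cells. No treated group lacked the hairpin, so an action of doxycycline itself, a tetracycline antibiotic, and an action of the hairpin cannot be told apart. The deposited file names carry a tag read here as a sequencing run, and on that reading the 3 untreated APC-deleted libraries lay in run RNA1 and the 3 treated ones in run RNA2. Run and treatment therefore coincide, and a difference between the runs cannot be told apart from the 24 h change. The APC-intact libraries used here lay all in run RNA1 and share no library with the main comparison, so their change is given beside the main results.

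TDO2 is a haem dioxygenase that opens the indole ring of tryptophan, the first step of the kynurenine pathway. Kynurenine, its product, can bind the aryl hydrocarbon receptor (AHR), a transcription factor that pairs with ARNT. APC is the scaffold of the complex that marks β-catenin for destruction, and its loss is a common early event in colorectal tumours. The study asked what an induced loss of TDO2 does in cells with and without APC.

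The 6 libraries held 90873656 to 111948430 counts assigned to genes, and replicates differed by more than sampling noise (chi-square per degree of freedom 11.9 to 23.8). The labels speak of biological triplicates without naming separate cultures, and every p-value rests on the spread between such libraries, part of which may be technical. In a principal component analysis of the 6 libraries the first component held 31.7% of the variance, with scores of -23.4, -21.4 and -10.9 without doxycycline and 14.2, 18.8 and 22.8 at 24 h. Reads classed by HTSeq as having no feature made up 4.70 to 4.99% of each total without doxycycline and 5.33 to 5.59% at 24 h. Such reads can lie within genes as well as outside them, and their part in the results was not tested. Of 16 colon epithelium markers, 4 passed the filter on low counts: Cdx2, Tff3 and Phgr1 had no count and Epcam 2 counts in all 18 libraries. Of 15 fibroblast markers 13 passed the filter. Their untreated levels varied widely. Means were 1316 CPM (counts scaled to library size) for Col3a1, 1221 for Col1a1 and 702 for Dcn, while Lum, on the same list, was far lower (values below). Of 19 haematopoietic markers in the files 7 passed the filter, and the summed level of all 19 was 35.1 to 39.1 CPM without doxycycline. Among those that did not pass, the leukocyte marker Ptprc had 19 counts in all 18 libraries and Emr1 none.

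The hairpin's target, Tdo2 (ENSMUSG00000028011), lies on the minus strand of chromosome 3 between 81957090 and 81975750 (mm10) and was near the limit of counting. The untreated libraries held 27, 6 and 13 counts (0.291, 0.0623 and 0.144 CPM) and the 24 h libraries 10, 17 and 7 counts (0.100, 0.152 and 0.0723 CPM). The groups overlapped, and the highest and the lowest value of all 6 were both in untreated libraries. The fitted fold was 0.664 (95% interval 0.321 to 1.38, edgeR quasi-likelihood test, adjusted p = 0.573). That interval holds no change as well as a fall to 0.321 of the untreated level, so a change was not detectable at these low counts. Without untreated replicate 1 the sign of the log2 fold change turned, from -0.59 to 0.09. Apc read 74.0, 79.5 and 72.2 CPM without doxycycline and 81.0, 83.3 and 84.2 CPM at 24 h (adjusted p = 0.594). Counts over the whole gene do not show a deleted part, so this value checks nothing about the deletion.

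After 24 h, 312 genes were higher and 566 lower than without doxycycline among 15006 tested (adjusted p under 0.05), 5.85% of all genes in either direction, 2.08% higher and 3.77% lower. Most of these changes were small. The median change was 0.30 (log2) among the higher and -0.30 among the lower genes, and 32 higher and 33 lower genes passed 2-fold. CPM of the 3 and 3 libraries did not overlap for 310 of the higher and 559 of the lower genes, where 33.6% of all tested genes did not overlap. RNA of bulk cells was counted, so fewer cells of a kind and less RNA per cell cannot be told apart. Leaving out any 1 of the 6 libraries left 428 to 533 genes (494, 533 and 518 without untreated replicate 1, 2 or 3; 521, 428 and 463 without 24 h replicate 1, 2 or 3), and fitting the 6 libraries alone gave 1203 higher and 1270 lower.

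Gpr56 (ENSMUSG00000031785, chromosome 8 from 94977109 to 95014208, plus strand), an adhesion G protein-coupled receptor now named Adgrg1, rose most among genes that reached 5 CPM. It measured 3.01, 3.20 and 4.01 CPM without doxycycline and 14.3, 15.6 and 15.5 CPM at 24 h. The groups were far apart and the rise was 4.44-fold (log2 2.15 ± 0.091 SE, n = 3 per group, adjusted p = 1.66e-11). In APC-intact cells Gpr56 went from 2.72, 2.896 and 2.52 to 7.74, 7.70 and 7.85 CPM (log2 1.52 ± 0.094). The larger rise in APC-deleted cells did not pass the test of the difference between lines (0.63 ± 0.129, adjusted p = 0.469). Its values in APC-deleted cells at 48 h, 18.5, 18.4 and 17.9 CPM, lay above all 24 h values, a difference that missed the threshold (adjusted p = 0.23).

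Car6, a secreted carbonic anhydrase on chromosome 4 (150187015 to 150201332, minus strand), read 12.7, 14.4 and 11.3 CPM without doxycycline and 27.3, 30.7 and 28.8 CPM at 24 h. Every treated library lay well above every untreated one (log2 1.17 ± 0.073). Angptl4, an inhibitor of lipoprotein lipase and a target of hypoxia and of lipid-sensing PPAR receptors, rose from 8.13, 7.21 and 6.15 to 13.4, 14.7 and 14.2 CPM (0.98 ± 0.102). Smaller rises were those of the nucleoside transporter gene Slc29a3 (0.69 ± 0.096) and of Ccar1, a transcriptional coactivator linked to cell cycle and apoptosis (0.67 ± 0.068). Cdsn, which encodes the adhesion protein corneodesmosin, rose by 1.76 ± 0.135 (log2) from a low level, 0.554 to 0.776 CPM without doxycycline and 2.06 to 2.34 at 24 h. These 6 genes, Gpr56 included, moved the same way past the test in APC-intact cells, where Car6 changed by 0.79 (log2) and Angptl4 by 0.37.

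Inmt (ENSMUSG00000003477, chromosome 6 from 55170626 to 55175043, minus strand) fell most among genes that reached 5 CPM. The enzyme it encodes adds methyl groups to tryptamine and other indole amines. It stood at 6.34, 5.29 and 7.53 CPM without doxycycline and at 1.48, 1.52 and 1.498 CPM at 24 h, so that the treated libraries were nearly equal and all below the untreated ones (log2 -2.09 ± 0.146, adjusted p = 3.73e-08). In APC-intact cells the fall was -1.59 ± 0.140. Angptl7, a secreted angiopoietin-like protein whose gene overlaps Mtor on the other strand, fell from 98.1, 90.2 and 97.2 to 49.0, 44.1 and 45.7 CPM (-1.04 ± 0.072). Aqp1, which encodes a water channel, read 37.3, 39.1 and 36.3 CPM without doxycycline and 20.7, 21.2 and 23.8 CPM at 24 h (-0.78 ± 0.057). Among the 15 genes of the naming rule that fell most were also Islr (-0.86), Pspc1, a paraspeckle protein gene (-0.83), the actin-binding protein gene Lsp1 (-0.71), the chemokine gene Ppbp (-0.72) and the cytokine gene Tslp (-0.72).

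**Figure D1:**
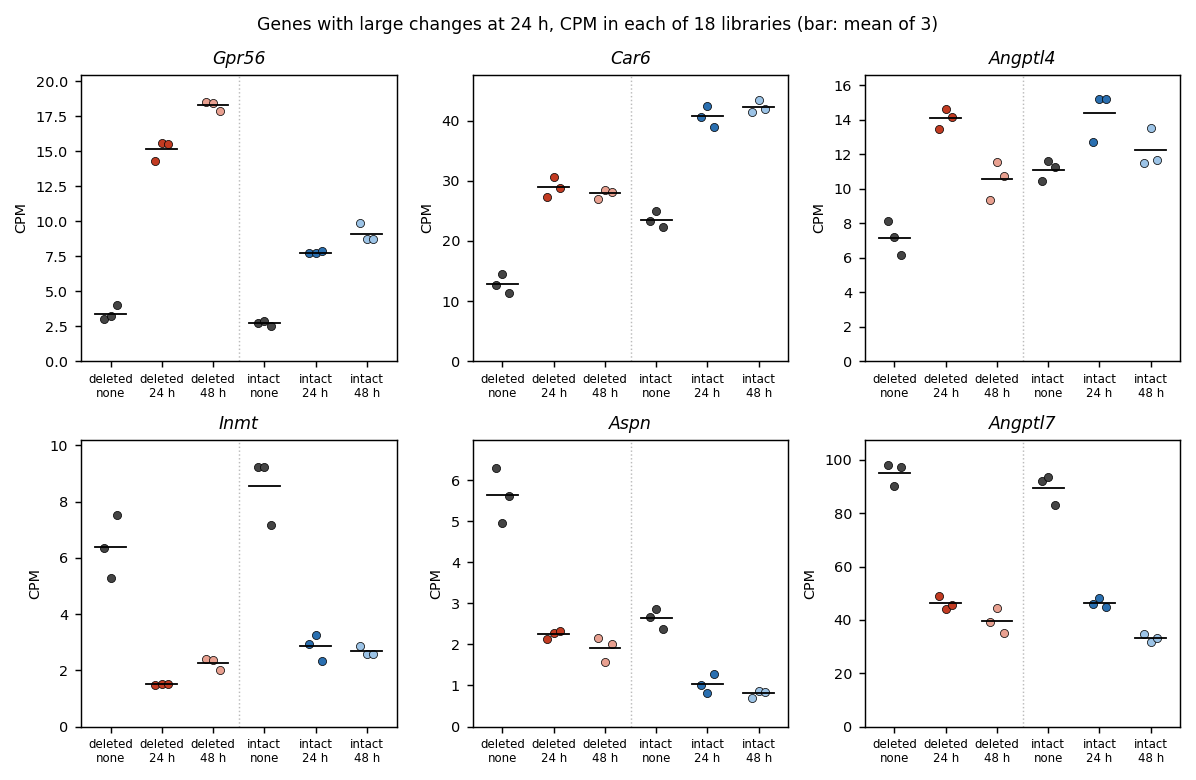
CPM of 6 genes with large changes in each of the 18 libraries, by line (APC-deleted left of the dotted line, APC-intact right) and by hours of doxycycline; points are libraries and bars the means of 3. Gpr56 rose from at most 4.01 to at least 14.3 CPM and Inmt fell from at least 5.29 to at most 1.52 CPM in APC-deleted cells at 24 h.

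On the list of matrix and proteoglycan genes falls and no rises passed the test at 24 h, while collagen genes, given below, moved both ways. Of 35 tested matrix and proteoglycan genes 12 fell, where 3.77% of all tested genes fell, and 9 were above 0 without passing the test, with a median log2 change of -0.23 over the list against -0.002 over all genes. Some genes of small leucine-rich proteoglycans, secreted proteins that bind collagen fibrils, were among the deepest falls. That family was not tested as a set. Lum, which encodes lumican, fell from 1.21, 0.737 and 1.18 to 0.231, 0.233 and 0.207 CPM (-2.21 ± 0.263). Aspn (asporin) stood at 6.31, 4.96 and 5.61 CPM without doxycycline and at 2.13, 2.29 and 2.33 CPM at 24 h (-1.32 ± 0.154). Ogn (osteoglycin) went from 145, 138 and 161 to 79.0, 73.7 and 77.5 CPM (-0.95 ± 0.104). Aspn, Omd and Ogn lie side by side on chromosome 13 between 49544443 and 49624500, and Omd (osteomodulin), which lies between the other 2, fell by 1.22 on the log2 scale. All 3 lie within Cenpp, a centromere protein gene on the opposite strand, which changed by -0.25 without passing the test (adjusted p = 0.212). The use of strand in counting is not given in the sources used here, so reads of overlapping genes may have been exchanged or dropped. Ccdc80, a secreted matrix protein gene, fell from a mean of 10.7 ± 0.32 CPM to 6.92 ± 0.27 CPM (SD, n = 3 each).

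Collagen genes moved unevenly, with 5 of 19 lower and 2 higher (1 higher without any 1 of the 6 libraries except 24 h replicate 2). Of all tested genes 3.77% were lower and 2.08% higher. Col3a1, the chain of the fibrillar type III collagen, fell from 1455, 1169 and 1325 to 856, 841 and 842 CPM (-0.64 ± 0.063). Col6a1 and Col6a2, which encode chains of type VI collagen, fell by 0.54 and 0.48 on the log2 scale, and Col1a2 by 0.31. Col5a3 (0.32) and Col18a1 (0.20) were the genes that rose. Among metalloproteinases and their inhibitors 5 of 17 fell and none rose, led by the matrix-degrading enzyme gene Mmp3 (-0.86), whose call was lost without untreated replicate 1 (adjusted p = 0.0628) or 24 h replicate 3 (adjusted p = 0.0526). The count of 5 was 2 without untreated replicate 1 or 24 h replicate 1 or 2, and 3 without untreated replicate 2 or 3. Of 23 mesenchymal genes 6 fell, among them Vim, the intermediate filament vimentin (2096, 1960.0 and 2068 CPM to 1630.0, 1601 and 1617 CPM). Of 13 tested fibroblast markers, which include some of the same genes, 8 fell, and their summed level was 4928 to 5472 CPM without doxycycline and 3983 to 4121 CPM at 24 h. Of 7 tested haematopoietic markers 1 fell (Cd68), with summed levels of 35.1 to 39.1 CPM and then 30.2 to 31.1 CPM, and of 4 tested colon markers 1 fell (Krt8), with 4.92 to 5.44 CPM and then 3.62 to 3.95 CPM. Krt8 lost its call without any 1 of the 6 libraries (adjusted p = 0.0614 to 0.130) and Cd68 without any 1 except untreated replicate 1 (adjusted p = 0.0657 to 0.117). The part of a shift between cell kinds in the matrix results was not tested.

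Interferon-stimulated genes are switched on by type I interferon through transcription factors that bind a repeated GAAA element. Of 44 tested members 23 fell and none rose at 24 h, where 3.77% of all tested genes fell. A log2 change below 0 was found for 42, with a median of -0.28 over the list. The list was drawn up with earlier results of these libraries known, so its count is not independent evidence of a direction. Isg15, a ubiquitin-like modifier, read 115, 131 and 129.7 CPM without doxycycline and 90.3, 89.5 and 98.4 CPM at 24 h (-0.43 ± 0.061, adjusted p = 0.000238). Usp18, the protease that removes it, went from 85.8, 90.3 and 97.4 to 64.6, 62.0 and 72.5 CPM. Every treated library was below every untreated one for both genes. Ifi27l2a had the deepest fall of the list, from 7.79, 7.07 and 7.82 to 3.33, 2.23 and 3.56 CPM (-1.32 ± 0.143). Ifit3, whose product binds other IFIT proteins on foreign RNA, fell from 182, 249 and 263 to 124, 118 and 147 CPM (-0.83 ± 0.121); a near-identical copy, Ifit3b, listed in the files as I830012O16Rik, can share its reads. Ifit3 lost its call in edgeR's test with the compared groups alone (adjusted p = 0.0529). Cmpk2, a mitochondrial nucleotide kinase gene, fell by 0.56 on the log2 scale. Members that did not pass the test include the antiviral enzyme gene Rsad2 (-0.24, adjusted p = 0.212) and Mx2 (0.00). The number of falls was 14 without untreated replicate 2, 12 without untreated replicate 3 and 11 without 24 h replicate 2. In APC-intact cells, where 4.25% of all tested genes were lower, 32 of the 44 fell and none rose, and no member passed edgeR's test of the difference between lines (3 below an unadjusted p of 0.05).

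The RefSeq promoter table (build GRCm38.p6) gave a window for 31 of these 44 genes, and the 250 bases before each start were searched on both strands, overlapping matches included, for 2 copies of GAAA with any 2 bases between them (TTTC for GAAA when read on the other strand). The element was present in 12 of the 31 genes (38.7%), in 9 of the 16 that fell and in 3 of the 15 that did not pass the test, against 343 of 10413 tested genes with a window (3.29%). Among all genes lower at 24 h, which include the 9 of the list, it was in 39 of 419 (9.31%) and among all higher genes in 6 of 229 (2.62%). Ifit3 and its copy Ifit3b, with nearly the same window, are both among the 9. A match is a description of the letters and not a shown binding site. The windows of 4 genes that fell and hold the element, and of Cmpk2, which fell and does not, are printed 5′ to 3′ on the gene's strand, with the element in capitals, to show where it lies.
Isg15 (chr4:156200819-156201068, minus strand): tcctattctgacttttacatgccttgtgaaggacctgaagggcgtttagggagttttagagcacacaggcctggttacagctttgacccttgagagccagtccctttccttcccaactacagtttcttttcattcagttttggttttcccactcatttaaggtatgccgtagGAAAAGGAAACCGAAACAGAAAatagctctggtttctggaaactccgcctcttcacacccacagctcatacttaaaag
Ifit3 (chr19:34583279-34583528, plus strand): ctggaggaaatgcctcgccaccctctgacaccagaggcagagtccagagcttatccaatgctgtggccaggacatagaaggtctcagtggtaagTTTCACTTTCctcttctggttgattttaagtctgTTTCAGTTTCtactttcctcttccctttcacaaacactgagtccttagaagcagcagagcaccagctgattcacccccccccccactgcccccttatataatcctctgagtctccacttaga
Ifit1 (chr19:34640639-34640888, plus strand): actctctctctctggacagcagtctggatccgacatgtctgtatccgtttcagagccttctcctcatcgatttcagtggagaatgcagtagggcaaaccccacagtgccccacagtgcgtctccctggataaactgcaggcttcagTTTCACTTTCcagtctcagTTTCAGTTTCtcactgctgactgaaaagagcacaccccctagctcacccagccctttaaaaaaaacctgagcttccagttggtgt
Bst2 (chr8:71537473-71537722, minus strand): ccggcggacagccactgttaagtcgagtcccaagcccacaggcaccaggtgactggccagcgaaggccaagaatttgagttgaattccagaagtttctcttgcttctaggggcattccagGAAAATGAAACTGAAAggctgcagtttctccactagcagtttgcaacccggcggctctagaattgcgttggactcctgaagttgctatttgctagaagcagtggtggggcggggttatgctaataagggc
Cmpk2 (chr12:26468965-26469214, plus strand): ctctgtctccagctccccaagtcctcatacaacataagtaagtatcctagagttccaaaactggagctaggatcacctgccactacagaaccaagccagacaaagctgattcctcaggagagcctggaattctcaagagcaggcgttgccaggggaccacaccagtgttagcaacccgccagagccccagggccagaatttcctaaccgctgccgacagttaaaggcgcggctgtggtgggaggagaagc
In Isg15 and Bst2 the matches overlap into one longer run of repeats, while Ifit3 and Ifit1 hold 2 separate copies each. Bst2, which encodes the virus-tethering protein tetherin, fell by 0.37 and Ifit1 by 0.38 on the log2 scale.

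Antigen presentation genes, part of which respond to interferon, gave 6 falls and no rise among 19 tested members, with a median of -0.17. Of all tested genes 3.77% fell. Psmb10, an immunoproteasome subunit gene, fell from 62.8, 62.3 and 67.5 to 41.7, 44.7 and 46.5 CPM (-0.53 ± 0.069), and Psmb9 by 0.41. The class I chains H2-K1 (-0.09, adjusted p = 0.658) and H2-D1 (-0.04, adjusted p = 0.798) and the light chain B2m did not pass the test. The count was 2 without untreated replicate 3 and 2 without 24 h replicate 2. Related H2 genes can share reads, so single members are uncertain.

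Among genes of DNA replication the changes that passed the test were small falls. Of 34 tested S phase genes 11 fell and none rose, where 3.77% of all tested genes fell, and 29 were below 0 with a median of -0.13. Of 30 G2 and M phase genes 1 fell (Cdc20), a share near that of all genes, and it lost its call without any 1 of the 6 libraries except 24 h replicate 1 (adjusted p = 0.0597 to 0.122). Mcm6, a subunit of the MCM helicase that opens replication origins, read 243, 251 and 247 CPM without doxycycline and 214, 212 and 214 CPM at 24 h (-0.21 ± 0.042, adjusted p = 0.00443). Rrm2, which makes deoxynucleotides, went from 255, 258 and 248 to 217, 213 and 212 CPM (-0.24 ± 0.051). The ranges of both genes were narrow and apart. In APC-intact cells 11 of the 34 fell, 9 of them the same genes. The count of falls was 6 without untreated replicate 1, 5 without 24 h replicate 1 and 6 without 24 h replicate 3. E2F factors drive many S phase genes, and the E2F-type letters TTTNGCGC (either strand) were in 3 of the 10 fallen genes with a window and in 2 of the 18 S phase genes that did not pass the test, against 2.30% of tested genes and 2.63% of all genes lower at 24 h. The Mcm6 window is shown as the one with most copies.
Mcm6 (chr1:128359706-128359955, minus strand): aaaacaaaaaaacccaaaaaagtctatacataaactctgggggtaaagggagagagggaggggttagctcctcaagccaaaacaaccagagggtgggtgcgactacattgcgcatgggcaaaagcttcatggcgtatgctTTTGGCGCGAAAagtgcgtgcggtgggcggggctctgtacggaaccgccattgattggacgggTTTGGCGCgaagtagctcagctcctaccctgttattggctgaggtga

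The kynurenine pathway gave no call at 24 h: 8 of 15 listed genes passed the filter, and edgeR called none, nor was any below an unadjusted p of 0.05 or called by DESeq2. Ido1, another enzyme gene for the opening step, had 12 counts in all 18 libraries, Kynu 1 and Haao 26. The amino acid transporter genes Slc7a5 (-0.10, adjusted p = 0.295) and Slc3a2 (0.01) carry tryptophan into cells and did not pass the test. Of the AHR genes Ahr itself rose, from 38.5, 38.3 and 37.5 to 55.5, 50.9 and 52.6 CPM (0.48 ± 0.069), as did its partner Arnt (125, 137 and 135 to 163, 159.7 and 167 CPM). Nqo1, a quinone reductase gene that both AHR and NRF2 can switch on, fell from 257, 240.3 and 238 to 177, 176 and 192 CPM (-0.43 ± 0.050). The classical AHR target Cyp1a1 had 75 counts and Cyp1b1 7 counts in all 18 libraries, too few to test, and Tiparp did not pass the test (0.13, adjusted p = 0.521). For Ahr the rise in APC-intact cells was 0.17 (adjusted p = 0.184). A fit with a run term assumes the same 24 h and the same 48 h response in both lines. Its 24 h change comes from the APC-intact 24 h libraries, so it is not separate from the value of that line. In it the adjusted p of Ahr was 0.0678. None of 14 tested NAD synthesis genes passed edgeR's test, Nampt included (0.02), with 1 below an unadjusted p of 0.05 and 1 called lower by DESeq2.

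Inflammatory genes moved in both directions. Of 24 tested chemokine and growth factor genes 3 rose and 3 fell, and of 24 acute phase and NF-kB genes 3 rose and none fell. Among all tested genes 2.08% rose and 3.77% fell. Both chemokine counts were 1 without untreated replicate 3 or 24 h replicate 2, the falls also without 24 h replicate 1 or 3, and the acute phase count was 1 without untreated replicate 1 or 3 or 24 h replicate 1 or 2. Csf2 and Csf3 encode the growth factors GM-CSF and G-CSF. Csf2 rose from 2.03, 3.21 and 1.99 to 4.58, 5.34 and 4.88 CPM (1.03 ± 0.176) and Csf3 from 9.85, 8.52 and 5.59 to 12.3, 13.3 and 11.4 CPM (0.63 ± 0.147, adjusted p = 0.0143). Lcn2, an iron-scavenging acute phase protein gene, read 4.66, 4.89 and 4.90 CPM without doxycycline and 6.26, 7.93 and 7.92 CPM at 24 h. Cxcl1, a neutrophil-attracting chemokine gene, rose by 0.28 ± 0.079 from 320.5, 331 and 287 to 426, 364 and 349.6 CPM. The chemokine gene Ccl9 fell from 11.9, 13.8 and 12.3 to 9.36, 8.92 and 9.31 CPM. None of the 4 genes that rose did so past the test in APC-intact cells, where Csf2 changed by 0.12, Csf3 by -0.40, Lcn2 by 0.23 and Cxcl1 by -0.22. None of the 4 passed the test of the difference between the lines, and that difference also contains the run. The fit with a run term, which takes its 24 h change from the APC-intact 24 h libraries, adds no separate check. In it Csf3 was at -0.27 (adjusted p = 0.399), Cxcl1 at -0.06 (adjusted p = 0.856), Csf2 at 0.33 (adjusted p = 0.399) and Lcn2 at 0.32 (adjusted p = 0.102). Csf3 also lost its call with the compared groups alone (adjusted p = 0.116) and without untreated replicate 3 (adjusted p = 0.0567) or 24 h replicate 2 (adjusted p = 0.0800), and Cxcl1 without any 1 of the 6 libraries (adjusted p = 0.0655 to 0.239) except 24 h replicate 3.

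Between 24 h and 48 h, a comparison within run RNA2 that uses the same 24 h libraries, 11 genes were higher (0.0733% of all tested) and 67 lower (0.446%) at 48 h, 0.520% in either direction. Csf3 measured 2.897, 3.63 and 3.62 CPM at 48 h, Lcn2 3.02, 3.08 and 2.27 CPM, and Cxcl1 195, 190.4 and 173 CPM. All 3 were thus below their untreated levels as well as below their 24 h levels. Nos2, the inducible nitric oxide synthase, did not pass the test at 24 h (63.4, 76.2 and 64.4 to 66.5, 75.4 and 74.7 CPM) and stood at 33.3, 34.3 and 33.1 CPM at 48 h (log2 -1.11 against 24 h). Of the chemokine list 11 genes and of the acute phase list 8 were lower at 48 h than at 24 h, and none was higher. APC-deleted 48 h replicate 2 stood apart from its group, and without it 193 genes differed between the times in place of 78; without 24 h replicate 2 the number was 47.

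**Figure D2:**
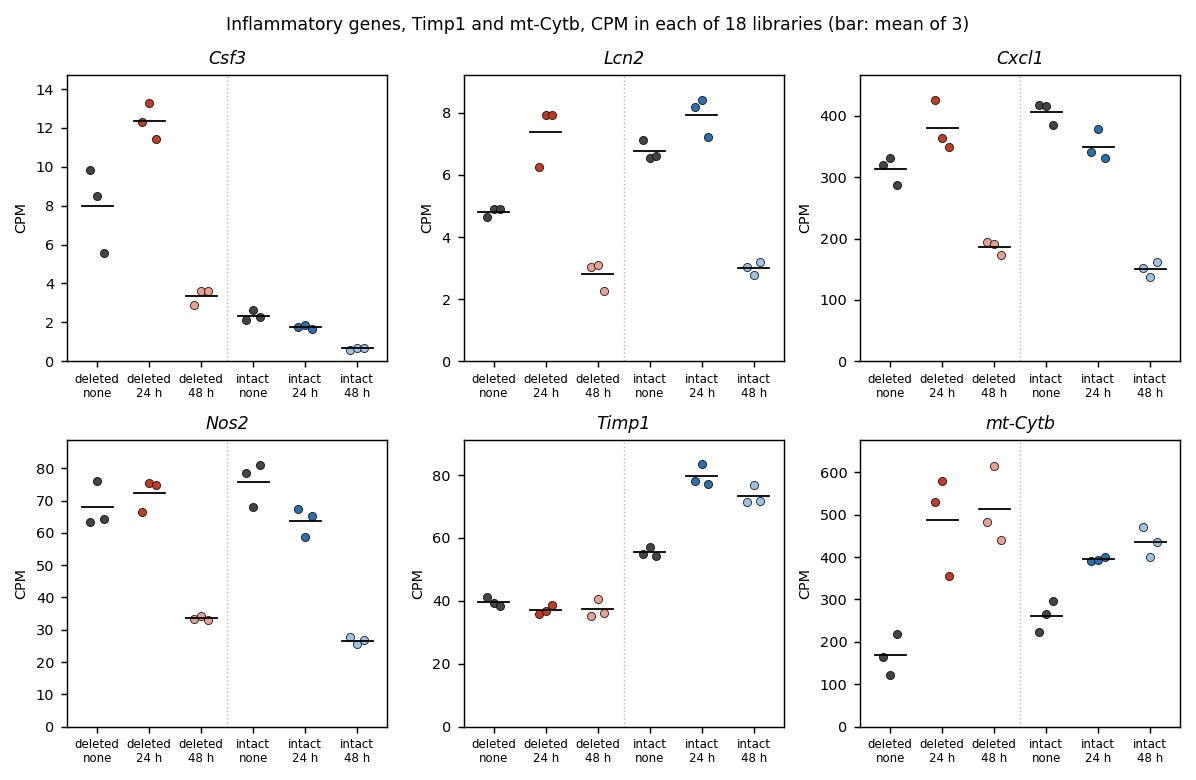
CPM of 4 inflammatory genes, Timp1 and mt-Cytb in each of the 18 libraries, by line (APC-deleted left of the dotted line) and hours of doxycycline; bars are means of 3. Csf3, Lcn2 and Cxcl1 were highest at 24 h and lowest at 48 h among the APC-deleted groups, Timp1 rose past the test in APC-intact but not in APC-deleted cells, and mt-Cytb spread from 356 to 579.9 CPM within the 24 h group.

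Where 2.08% of all tested genes rose and 3.77% fell, 7 rose and 2 fell of 18 tested genes of the mitochondrial genome, with a wide spread between libraries. Its 13 mRNAs encode subunits of the respiratory chain or ATP synthase, and of these 6 rose and none fell, and the median change was 0.97 (log2). mt-Cytb, the cytochrome b of complex III, read 165, 123 and 219 CPM without doxycycline and 529.6, 579.9 and 356 CPM at 24 h (1.53 ± 0.214, adjusted p = 0.000916). mt-Nd2, a subunit of complex I, read 313, 206 and 354 CPM and then 722, 714 and 377 CPM. The third 24 h library was thus close to the untreated range for mt-Nd2 and between the groups for mt-Cytb. All mitochondrially encoded genes took 0.205, 0.144 and 0.274% of the counts without doxycycline and 0.440, 0.429 and 0.246% at 24 h, so the groups overlapped. The count of 6 was 2 without untreated replicate 1 or 2, 1 without 24 h replicate 1 or 2, 3 with the compared groups alone and 0 in the fit with a run term. mt-Nd2 lost its call in each of these fits (adjusted p = 0.0861 to 0.920). The 2 genes that fell are the transfer RNA genes mt-Tn (mean 2.17 to 1.12 CPM, log2 -0.96 ± 0.164) and mt-Tc (mean 4.90 to 2.48 CPM, log2 -0.98 ± 0.147), named after their values were seen, and the transfer RNA gene mt-Tp rose (0.54 ± 0.139). In APC-intact cells edgeR called none of the 13 (median 0.32), with 2 below an unadjusted p of 0.05. Reads without a unique position were not counted, and nuclear copies of mitochondrial genes can remove reads in this way, so single genes are uncertain. Of 51 nuclear genes of the respiratory chain 2 fell and none rose, and 1 of 46 mitochondrial ribosome genes fell, shares near or under the 3.77% of all genes. The count of 2 was 0 without untreated replicate 3 or 24 h replicate 1 or 2, 1 without any other library, and 14 with the compared groups alone.

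Lipid synthesis and Wnt genes gave a few calls each, where 3.77% of all tested genes fell and 2.08% rose. Scd2, a fatty acid desaturase gene, fell from 741, 739.9 and 756 to 520.3, 526 and 515 CPM (-0.52 ± 0.052), and Fads2, another desaturase gene, by 0.42. Fdps, an enzyme gene of the cholesterol route, fell from 72.2, 76.0 and 80.5 to 56.8, 57.5 and 54.9 CPM, 1 of 3 falls among 22 tested genes of that route (1 without untreated replicate 2 or 3 or 24 h replicate 2). Among 16 tested Wnt feedback and target genes 3 fell and 2 rose (1 rise without untreated replicate 3 or 24 h replicate 1 or 2). Dkk2, a secreted Wnt modulator, fell from 36.5, 30.9 and 31.2 to 21.3, 21.8 and 20.3 CPM, and Ccnd1, which encodes cyclin D1, from 554, 562 and 542 to 483, 453 and 461 CPM. Sox9 rose from 66.2, 67.2 and 62.7 to 82.7, 80.8 and 74.4 CPM. Axin2, the usual feedback target of β-catenin, did not pass the test (-0.20, adjusted p = 0.214).

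**Figure D3:**
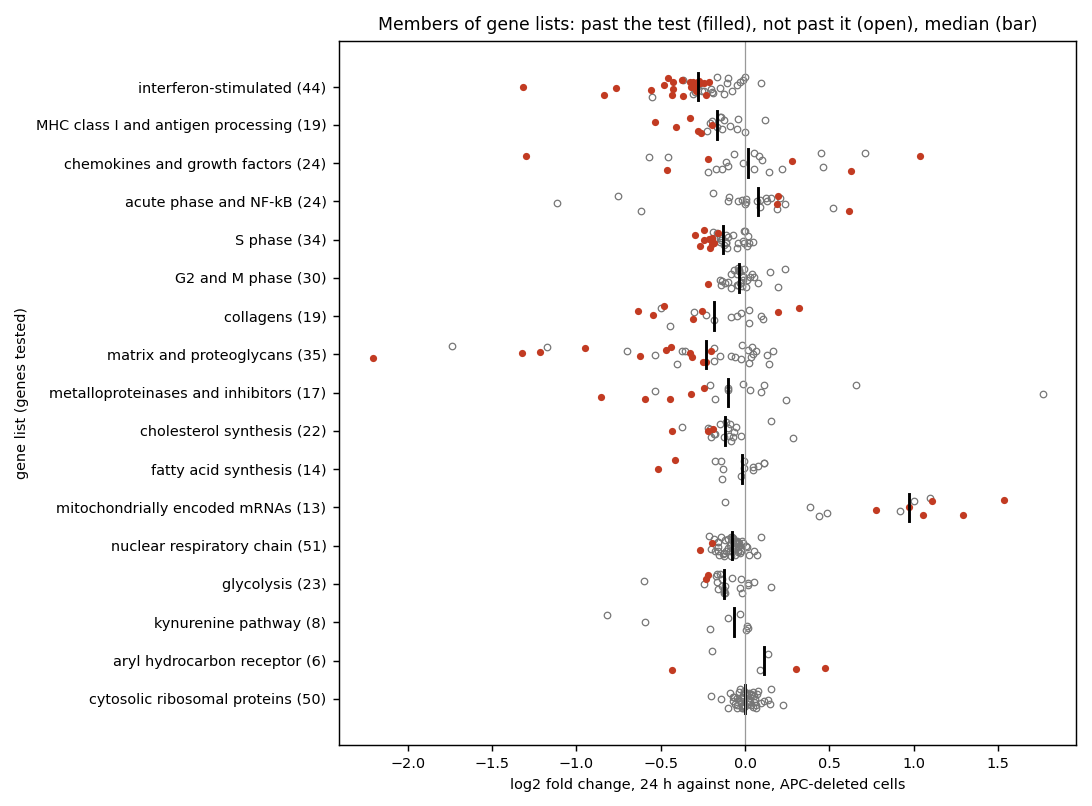
Log2 fold change at 24 h in APC-deleted cells of every tested member of 17 gene lists; filled points passed the test, open points did not, and black bars are medians. The interferon-stimulated list sits mostly below 0 (median -0.28), the mitochondrially encoded mRNAs above 0 (median 0.97) and the ribosomal protein genes around 0 (median -0.002).

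The APC-intact line moved in the same direction for nearly all of these genes. In it 208 genes were higher (1.39% of all tested) and 638 lower (4.25%) at 24 h, 5.64% in either direction, and leaving out any 1 of its libraries gave 364 (without untreated replicate 1) to 1259 genes (without 24 h replicate 2); it was also 417 without untreated replicate 2 and 441 without 24 h replicate 1. Of the 312 genes higher in APC-deleted cells, 90 (28.8%) were also called higher in APC-intact cells, 296 (94.9%) had the same sign and none was called the other way. Of the 566 lower genes, 347 (61.3%) were also called lower and 559 (98.8%) had the same sign. Seen from the APC-intact lists, those shared genes were 43.3% of the higher and 54.4% of the lower ones. The median change in APC-intact cells was 0.19 for the genes higher in APC-deleted cells, against 0.30 there, and -0.26 for the lower genes. Those genes were chosen by the test in APC-deleted cells, which favours large changes there. For the genes called in APC-intact cells, the median change in APC-deleted cells was 0.25 for the higher and -0.23 for the lower ones. Across the 9945 genes with at least 5 CPM without doxycycline, Pearson's r of both changes was 0.728, and across all 15006 it was 0.309, a description over genes, which are not independent replicates.

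**Figure D4:**
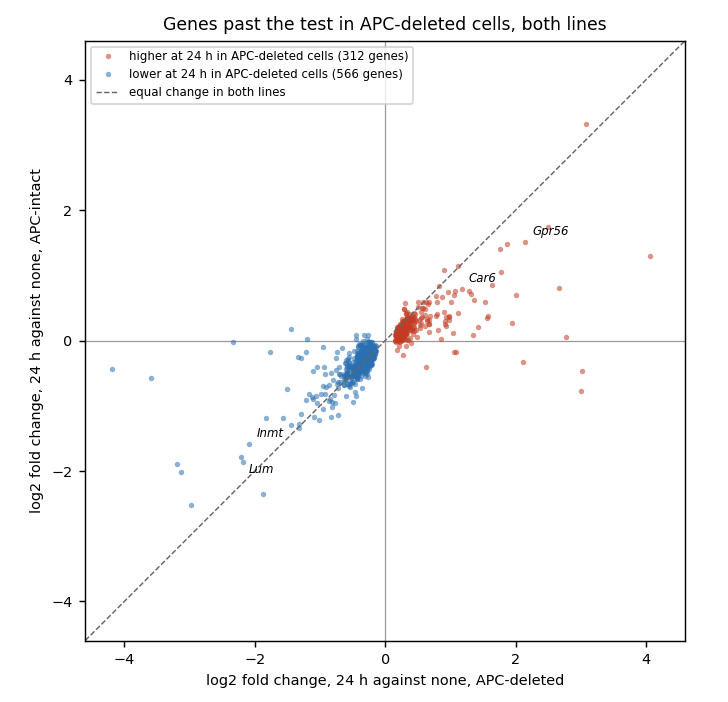
Log2 fold change at 24 h in APC-deleted cells (x axis) and in APC-intact cells (y axis) for the 312 higher and 566 lower genes of the APC-deleted comparison; the dashed line marks equal change. Nearly all lower genes (559) lie below 0 on the y axis too, and most higher genes lie above 0 but under the dashed line. All were chosen by the test on the x axis, which favours large changes there.

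The difference of the 24 h response between the lines passed the test for 1 gene of 15006 (0.00666%), while 613 genes had an unadjusted p under 0.05 and DESeq2 called 5. That gene was Timp1 (chromosome X from 20870166 to 20874735, plus strand), an inhibitor of metalloproteinases. It measured 41.3, 39.2 and 38.5 CPM without doxycycline and 35.9, 36.7 and 38.6 CPM at 24 h in APC-deleted cells (-0.10 ± 0.057, adjusted p = 0.358). In APC-intact cells it rose from 54.9, 57.1 and 54.2 to 78.0, 83.7 and 77.2 CPM (0.52 ± 0.057). The difference was -0.62 ± 0.080 (log2, adjusted p = 0.0037). Timp1 overlaps the synapsin gene Syn1 on the opposite strand. Because the APC-deleted 24 h libraries alone lay in the other run, this difference and a run effect cannot be told apart. A run term can be fitted only if both lines are given the same 24 h response. The fit used here also gave them the same 48 h response. It takes its 24 h change from the APC-intact 24 h libraries and its run term from the APC-deleted ones. It is therefore no check apart from the APC-intact values and the difference between lines. In it the run term was called for 0 genes by edgeR (393 at unadjusted p under 0.05), and 521 of the 878 genes were called the same way. For the other genes the test does not show that the lines respond alike: the 95% interval of the difference had a median width of 0.41 (log2) among the higher and 0.40 among the lower genes.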

How the data were processed

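Counts of RNA sequencing reads per gene from 18 MC38 libraries were grouped by title. The deposited files hold whole-number counts per gene from the authors and, in a second column, RPKM of the authors, not used here. STAR, HTSeq and mm10 are named by the submitters' processing notes; versions and strand setting are not given in the sources used here. The share of each total that names no gene, 22.9 to 25.5% over the 18 libraries, was left out. Of 39179 genes, 25225 had a count and 15006 passed filterByExpr. The test was edgeR's quasi-likelihood F test (version 4.0.16, R 4.3.3; TMM, 6 groups of 3, robust glmQLFit), adjusted by Benjamini-Hochberg over all genes at 0.05, with a common biological coefficient of variation of 8.33%. SE is the size of the log2 fold change divided by the square root of F. A prior count of 2 entered log2 CPM for component analyses. Intervals cover the spread the fit estimates.

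Members, lists and rules were chosen with earlier results of these data known. Genes were named if they passed the test, had a mean of 5 CPM or more in either group, CPM of the groups that did not overlap and a symbol: the 15 that rose most and the 15 that fell most, plus up to 4 called members of each list by adjusted p, Tdo2 and Apc, and up to 5 each way for the other contrasts. The text uses a part of these; list members outside the rule were added after their values were seen. RefSeq promoter windows are from GRCm38.p6.

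Alternatives were DESeq2 1.42.0, its size factors in edgeR, no filter, the replicate number as a block, counts thinned to the smallest total (seed 11), the compared groups alone, each library left out, a run term, and no mitochondrially encoded genes. Leaving out 2 libraries that stand apart was chosen after seeing the data. Replicate numbers did not pair the samples. Tested on simulated data for the main comparison, edgeR found 95% of genes changed 1.5-fold and 100% of those changed 2-fold, with 9 false calls over 14855 genes. The changed genes were drawn from those at 5 CPM or more without doxycycline, and no run effect was simulated. Changes under 1.5-fold were not simulated either, and in the data only 66 of 312 higher and 85 of 566 lower genes passed that size.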

Additional observations from a re-analysis of the deposited data

Results flagged for a closer look

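The 24 h response of Timp1 differed between the lines by -0.62 ± 0.080 (log2, APC-deleted minus APC-intact), the single gene past the test of that difference. In APC-deleted cells the following genes differed between 48 h and 24 h past the test, all relative to 24 h and all within run RNA2. Csf3 changed by -1.87 (log2), Lcn2 by -1.40, Nos2 by -1.11, Cxcl1 by -1.03 and Saa3, an acute phase apolipoprotein gene, by -0.95. Higher at 48 h were Klhl30 (0.58), Cyp2d22 (0.53), Tgfbi, a matrix protein gene induced by TGF-β (0.48), the water channel gene Aqp1 (0.43) and Gfra1, a GDNF co-receptor gene (0.39). Of the 10 genes, 7 kept their call under each alternative run. Cyp2d22 lost it in 9 alternatives (adjusted p up to 0.377), among them without any 1 of the 6 libraries compared except 48 h replicate 3, and Aqp1 (adjusted p = 0.0936) and Gfra1 (adjusted p = 0.141) lost it with the compared groups alone. Aqp1 had fallen at 24 h, and its 48 h values of 29.4, 29.9 and 29.1 CPM lay between those at 24 h and those without doxycycline.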

How the results depend on the processing

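The number of genes called at 24 h in APC-deleted cells (878) became 2473 with the compared groups alone, 1377 with DESeq2, 1564 without the 2 libraries that stand apart (APC-intact 24 h replicate 1 and APC-deleted 48 h replicate 2), and 428 to 533 without 1 library in turn. APC-intact 24 h replicate 1 stood apart on principal component 4 of all 18 libraries (score 35.1, 4.07% of the variance). By chi-square per degree of freedom, replicate 2 of that group lay further off, at 50.0 from replicate 1 and 76.9 from replicate 3. Replicates 1 and 3 were at 29.0, and replicate 2 was kept in that fit. With the compared groups alone 48.6% of calls were higher, against 35.5%. For APC-intact cells (846) the count was 258 with the compared groups alone and 364 to 1259 without 1 library. For the difference between lines (1) it was 5 with DESeq2 and 1 to 2 without 1 library, with Timp1 called under each alternative run (adjusted p = 3.24e-09 to 0.0319). For 48 h against 24 h (78) it was 22 with the compared groups alone, 189 with DESeq2 (31.2% higher against 14.1%), 221 without the 2 libraries and 47 to 193 without 1 library. The remaining settings stayed within 1.5 times of each count. With the replicate number as a block the counts were 988, 965, 1 and 86, and 859 of the 878 genes kept their call, mt-Nd2 (adjusted p = 0.0591) not among them; samples with the same number did not deviate together (correlations of -0.018 to 0.066 in the main comparison). Of 109 named genes called in the main comparison 55 kept their call under each alternative run and 54 lost it in at least 1. In the fit with a run term the log2 change turned sign for Csf3 (-0.27), Timp1 (0.40), Cxcl1 (-0.056), Plk2 (-0.070) and Mtrr (-0.004), and that of Tdo2 (main -0.59) ranged from -0.99 without untreated replicate 2 to 0.088 without untreated replicate 1. With mitochondrially encoded genes left out, their own list has no value. The causes were not tested, and the fits with libraries left out also hold fewer samples. The estimate for Tdo2 rests on only 6 to 27 counts a library.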

Other observations

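Other gene groups held few calls at 24 h in APC-deleted cells, where 2.08% of all tested genes rose and 3.77% fell. Of 23 tested p53 targets 3 rose and 1 fell. Mdm2, the ubiquitin ligase that restrains p53, read 65.5, 68.1 and 64.0 CPM without doxycycline and 77.4, 75.0 and 73.0 CPM at 24 h, and the death receptor gene Fas 7.14, 8.82 and 8.73 and then 10.2, 9.97 and 10.7 CPM. These rises are small, and the count of 3 was 0 without untreated replicate 1 or 3 or without 24 h replicate 1 or 2, and 1 without 24 h replicate 3. Among 28 heat shock and unfolded protein response genes 2 rose and 3 fell (1 fall without untreated replicate 2 or 3 or without 24 h replicate 2 or 3). Both risers, Lonp1 and Sel1l, lost their call without any 1 of the 6 libraries (adjusted p = 0.0719 to 0.143). Lonp1, which encodes a protease of the mitochondrial matrix, rose from 254.9, 258.7 and 256.9 to 303.9, 311.5 and 306.0 CPM. Xbp1, a transcription factor gene of the endoplasmic reticulum stress response, fell from 163.6, 160.4 and 171.1 to 139.6, 139.4 and 137.9 CPM. In the fit with a run term Xbp1 did not pass edgeR's test (adjusted p = 0.0553).

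Of 20 cytosolic tRNA synthetase genes Wars, which charges tRNA with tryptophan, rose (170.7, 167.2 and 157.8 to 196.7, 203.9 and 188.8 CPM), and Mars, which charges it with methionine, fell (196.7, 201.5 and 199.5 to 170.5, 169.6 and 173.1 CPM). Wars lost its call without untreated replicate 3 (adjusted p = 0.0553) or 24 h replicate 2 (adjusted p = 0.0717), and Mars without untreated replicate 2 (adjusted p = 0.0534) or 24 h replicate 1 or 2 (adjusted p up to 0.0633). None of 50 cytosolic ribosomal protein genes passed edgeR's test (2 below an unadjusted p of 0.05, 0 called by DESeq2), and none of 27 immediate early genes did (5 below an unadjusted p of 0.05, 1 called lower by DESeq2). Ndrg1, a hypoxia-induced gene, rose from 184.0, 184.0 and 176.2 to 215.9, 235.5 and 225.1 CPM, and Egln3, which encodes an oxygen-sensing hydroxylase, fell from 124.1, 112.8 and 123.5 to 99.5, 99.2 and 90.1 CPM. The groups did not overlap for these 2 genes, and in the fit with a run term Egln3 did not pass the test (adjusted p = 0.208). Txnip, which encodes a thioredoxin inhibitor, fell by 0.43 on the log2 scale in APC-deleted and by 0.57 in APC-intact cells. The call in APC-deleted cells was lost without untreated replicate 3 (-0.29, adjusted p = 0.150) or 24 h replicate 1 or 2 (adjusted p up to 0.135), with no filter and with the compared groups alone (adjusted p = 0.157).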
